A study of Mus musculus with 7 samples.

Results

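The 4 *Zic* genes examined here lie in 2 head-to-head pairs, *Zic1*/*Zic4* on mouse chromosome 9 and *Zic2*/*Zic5* on chromosome 14, and each pair was treated as a single locus. Peaks were assigned to a locus when their centre fell inside a gene of the pair or within 50 kb of it (mm10, GENCODE M21). Of the 33442 peaks in the 3 libraries of granule neuron progenitors (GNPs), 22 met this rule, 12 at *Zic1*/*Zic4* and 10 at *Zic2*/*Zic5*. They comprised 19 of 31400 H3K27ac peaks, 3 of 1946 Chd7 peaks of WT GNPs and 0 of 96 Chd7 peaks of *Chd7*-deficient GNPs.

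Zic proteins are transcription factors with tandem C2H2 zinc fingers related to those of the Gli factors, the nuclear effectors of Sonic hedgehog. In the cerebellum *Zic* genes are strongly expressed in the granule lineage, and ZIC1 and ZIC2 bind regulatory DNA of GNPs and of the neurons they give rise to. Loss of *ZIC1* together with *ZIC4* has been linked to Dandy-Walker malformation of the cerebellum, and *ZIC2* mutations cause holoprosencephaly. H3K27ac marks active promoters and enhancers, and Chd7 is an ATP-dependent chromatin remodeller mutated in CHARGE syndrome. Top2b, the type II topoisomerase of postmitotic granule neurons, relieves torsional strain in DNA.

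The study used ChIP-seq, which sequences the DNA fragments an antibody pulls down and calls peaks where they pile up above the local background. GNPs were purified at P7 from C57BL/6 pups (C57BL/6N in the study's methods), either WT or *Chd7*-deficient (*Atoh1-Cre::Chd7* f/f), and cerebellar granule neurons (CGNs) of both genotypes were derived from GNPs by culture for 48 h without Shh. H3K27ac and Chd7 were mapped in WT GNPs, Chd7 also in *Chd7*-deficient GNPs, and Top2b in CGNs of both genotypes. The WT mice of the study carried the floxed *Chd7* alleles without Cre (*Chd7* f/f), and *Atoh1-Cre* acts in the granule lineage and other *Atoh1*-expressing cells, not in Purkinje cells. Each condition was 1 library from a bulk cell preparation, so no value has a replicate error, no difference between conditions could be tested, and a mark in fewer cells cannot be told apart from less of the mark per cell. As a check of the cell type, H3K27ac peaks lay within 1 kb of a start of 7 of 8 granule lineage markers, 1 of 4 Purkinje cell markers (*Foxp2*), 3 of 4 inhibitory interneuron markers (*Pax2*, *Gad1* and *Slc6a5*), 1 of 5 glial markers (*Gfap*) and 1 of 4 blood and vessel markers (*Csf1r*). This distance was chosen after the values were seen, and with a peak required over the start itself the counts were 4, 1, 2, 0 and 0. The part of other cells in the acetylation at the *Zic* loci was not tested.

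The DNA under 2 of the 3 Chd7 summits is shown first, because these are places where the remodeller itself was detected at the *Zic* loci. Each line gives 201 bases of mm10 (GRCm38) centred on the summit, plus strand, in lower case with every CpG in capitals.
Chd7 site downstream of Zic1, chr9:91350673-91350873: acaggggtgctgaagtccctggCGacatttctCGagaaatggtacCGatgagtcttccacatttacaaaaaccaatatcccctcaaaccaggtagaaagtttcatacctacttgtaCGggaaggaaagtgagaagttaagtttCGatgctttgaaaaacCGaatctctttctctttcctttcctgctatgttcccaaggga
Chd7 site in the first Zic2 coding exon, chr14:122475726-122475926: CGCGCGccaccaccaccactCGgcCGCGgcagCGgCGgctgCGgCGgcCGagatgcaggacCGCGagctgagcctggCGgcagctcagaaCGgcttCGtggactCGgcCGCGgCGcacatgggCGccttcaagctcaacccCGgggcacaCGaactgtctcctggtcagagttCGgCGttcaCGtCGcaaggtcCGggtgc
These sites differed in composition. The site downstream of *Zic1* was AT-rich, with 43.3% GC and 6 CpGs. The site in the *Zic2* exon had 71.6% GC and 28 CpGs. Over the 1902 Chd7 summits on assembled chromosomes the median window had 56.2% GC and 6 CpGs, and over 31395 H3K27ac summits 51.7% GC and 4 CpGs. None of 6 short motifs searched on both strands was found in these 2 windows. These were CAGCTG, present in 19.5% of Chd7 summit windows, CAGATG (23.7%), CCTGCTG (9.94%), TGGGTGG (5.36%), TTGGCA (18.9%) and TGACAG (16.8%).

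*Zic1* (ENSMUSG00000032368.14, chr9:91358058-91365810, minus strand) overlaps the 5′ part of *Zic4* (ENSMUSG00000036972.14, chr9:91362413-91389348, plus strand), which has 12 annotated transcripts. *Zic5* (ENSMUSG00000041703.7, chr14:122456795-122465677, minus strand) and *Zic2* (ENSMUSG00000061524.8, chr14:122475435-122479852, plus strand) start 9.758 kb apart and point away from each other. For *Zic1* and *Zic5*, the sequence just upstream of the start is given on the gene's own strand, CpGs again in capitals, to show the CpG content of the shared upstream DNA. Promoter sequences of 3 of the 4 genes (*Zic1*, *Zic4* and *Zic5*) were found in the RefSeq table used (GRCm38.p6).
Zic1 upstream, chr9:91365811-91366018, minus strand: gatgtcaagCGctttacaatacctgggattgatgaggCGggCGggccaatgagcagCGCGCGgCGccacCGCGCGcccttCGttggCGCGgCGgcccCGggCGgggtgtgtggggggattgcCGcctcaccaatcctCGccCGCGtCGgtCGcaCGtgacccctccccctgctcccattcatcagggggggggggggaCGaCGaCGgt
Zic5 upstream, chr14:122465678-122465908, minus strand: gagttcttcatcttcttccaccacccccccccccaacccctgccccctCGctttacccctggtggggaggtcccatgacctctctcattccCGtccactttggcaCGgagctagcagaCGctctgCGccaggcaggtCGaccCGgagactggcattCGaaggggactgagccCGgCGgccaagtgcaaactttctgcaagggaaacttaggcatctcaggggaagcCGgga
The *Zic1* stretch of 208 bases held 26 CpGs, and the *Zic5* stretch of 231 bases held 11. The corresponding stretches of 32851 RefSeq promoters had medians of 4 and 5 CpGs. Of the 6 motifs only TTGGCA was found, once in the *Zic5* stretch, as in 11.6% of promoters.

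Both *Zic* gene pairs lay inside wide H3K27ac domains in WT GNPs. Acetylation ran almost without a break across *Zic1*, *Zic4* and *Zic2* and the DNA between the starts of each pair. In the 3′ part of *Zic5* it was broken by gaps of 1867 and 359 bp. H3K27ac peaks covered 99.5% of the DNA from the first to the last base of *Zic1* and *Zic4*, and 89.8% of that of *Zic5* and *Zic2*. Of the 2.557 kb between the *Zic1* start and the next upstream *Zic4* start, 97.7% was acetylated, and of the 9.758 kb between the *Zic5* and *Zic2* starts, 99.4%. Within 50 kb of the genes the covered length was 52.0 kb at *Zic1*/*Zic4* (39.6% of the window, 11 peaks) and 43.7 kb at *Zic2*/*Zic5* (35.5%, 8 peaks).

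**Figure D1:**
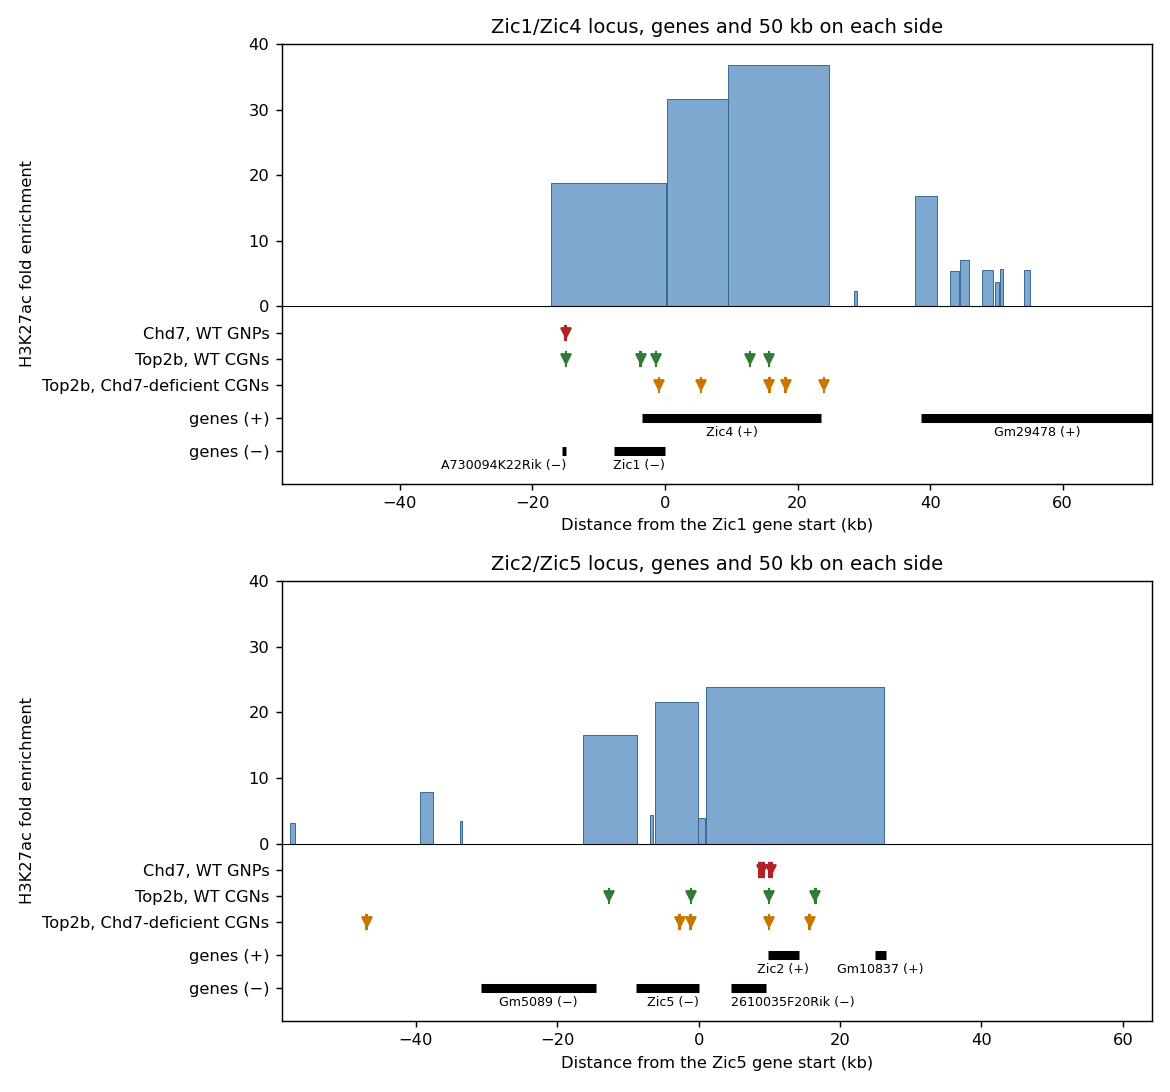
Maps of the *Zic1*/*Zic4* locus (top) and the *Zic2*/*Zic5* locus (bottom), with distance from the *Zic1* or *Zic5* gene start in kb on the x axis. Blue bars are H3K27ac peaks of WT GNPs, as wide as the peak and as high as its fold enrichment, and arrowheads mark the centres of Chd7 and Top2b peaks. The bars of at least 6 kb, 3 at each locus, cover or flank the genes, and all 3 Chd7 peaks lie under them.

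At *Zic1*/*Zic4* 3 abutting peaks carried the domain. The first (chr9:91348635-91365988) was 17.354 kb wide, rank 6 of 31400 by width, had a fold enrichment of 18.8 over the local background and spanned all of *Zic1* and the earliest *Zic4* start. The second (chr9:91366049-91375296) was 9.248 kb wide, with a fold enrichment of 31.6, and lay over the *Zic1* upstream DNA and further *Zic4* starts. The third (chr9:91375391-91390564) was 15.174 kb wide, rank 10, with a fold enrichment of 36.7 (rank 42), the highest at either locus, and its summit lay in the 3′ part of *Zic4*. The 3 peaks were separated by gaps of only 60 and 94 bp. The 60 bp gap lay at positions −238 to −179 from the *Zic1* start. Of the other 8 peaks, 7 lay around the 5′ end of *Gm29478*, a long intergenic noncoding RNA that starts downstream of *Zic4*. The strongest of these (chr9:91403551-91406906) was 3.356 kb wide with a fold enrichment of 16.9, the remaining 6 had fold enrichments from 3.77 to 7.0, and the peak between *Zic4* and *Gm29478* had 2.32.

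At *Zic2*/*Zic5* the widest peak lay over *Zic2*, while the peak over the *Zic5* body had a similar pileup at its summit. The *Zic2* start was covered by a peak of 25.227 kb (chr14:122466661-122491887), the widest of all 31400 H3K27ac peaks. Its fold enrichment was 23.9, its pileup 166.59 fragments (rank 798), and its summit lay 0.286 kb downstream of the start. This peak also took in *2610035F20Rik*, a noncoding transcript that starts 0.236 kb from *Zic2* on the other strand. The *Zic5* body, with its internal annotated start, carried a peak of 6.021 kb (chr14:122459530-122465550, fold enrichment 21.6, pileup 175.06 fragments, rank 642). A peak of 7.603 kb (chr14:122449346-122456948, fold enrichment 16.6) lay beyond the 3′ end of *Zic5*, over the start of the predicted gene *Gm5089*. By contrast, the peak over the upstream annotated *Zic5* start (chr14:122465614-122466597) was 0.984 kb wide, with a fold enrichment of 3.91. Its pileup of 49.88 fragments (rank 9197) was above the median of 32 over all H3K27ac peaks. This peak was set off by gaps of 63 bp on each side, at positions 64 to 126 and −983 to −921 from that *Zic5* start. Only the first of these breaks fell close to the start. Of the remaining 4 peaks, the strongest (chr14:122426290-122428067) had a fold enrichment of 7.94 and the other 3 had 3.15 to 4.40.

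Over all 31400 peaks the median width was 646 bp and the median fold enrichment 4.35. The 19 *Zic* peaks had medians of 1402 bp and 5.66, and 15 were wider and 14 stronger than these medians. The widths were uneven, since 6 peaks were at least 6 kb wide and 8 were under 1 kb. The limit of 6 kb was set after the values were seen. Of 98 such wide peaks in all, 6 were at the *Zic* loci, and of the 10 widest, 3 (ranks 1, 6 and 10).

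**Figure D2:**
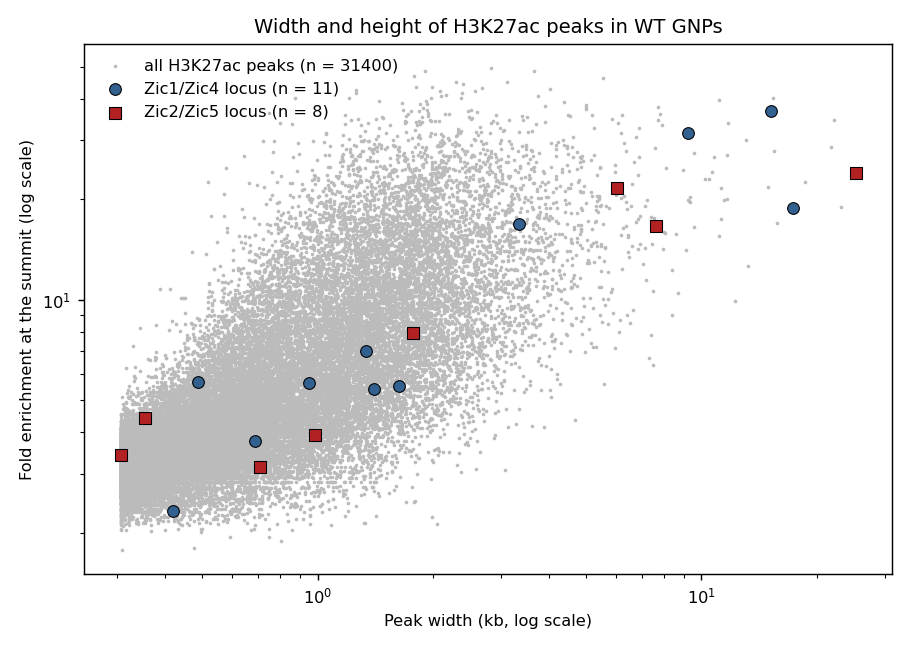
Width in kb (x axis, log scale) against fold enrichment (y axis, log scale) of each H3K27ac peak of WT GNPs, with all 31400 peaks in grey. The 11 peaks at *Zic1*/*Zic4* (circles) and the 8 at *Zic2*/*Zic5* (squares) range from 307 bp to 25227 bp, and 6 of them lie in the sparse right end of the cloud.

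The wide *Zic* peaks were richer in CpG than wide peaks in general. Their median observed-to-expected CpG ratio was 0.491, against 0.355 for all 98 peaks of at least 6 kb and 0.286 for all H3K27ac peaks, while their median GC content (47.7%) was close to that of all wide peaks (48.5%). Among the 6 wide *Zic* peaks the ratio was lowest in the 9.248 kb *Zic4* peak (0.279) and highest in the 6.021 kb *Zic5* peak (0.637). The 13 *Zic* peaks under 6 kb had a median of 0.235. These are descriptions of the sequence, without a test.

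When neighbouring H3K27ac peaks were joined into regions and ranked by summed width times pileup (in Mb × fragments), a common approximation of super-enhancers, both loci came near the top of 17539 regions. The *Zic1*/*Zic4* region (chr9:91348635-91420887, 11 peaks over 72.253 kb) ranked 2, with a signal of 9.18 Mb × fragments, and the *Zic2*/*Zic5* region (chr14:122449346-122491887, 5 peaks over 42.542 kb) ranked 7, with 6.21 Mb × fragments. Both were among the 612 regions above the slope limit of the curve. The H3K27ac peak farthest from *Zic5* belonged to the region of rank 9, which overlaps *Clybl*. Without peaks centred within 2 kb of an annotated start, the *Zic1*/*Zic4* rank was 10 and the *Zic2*/*Zic5* rank 23.

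**Figure D3:**
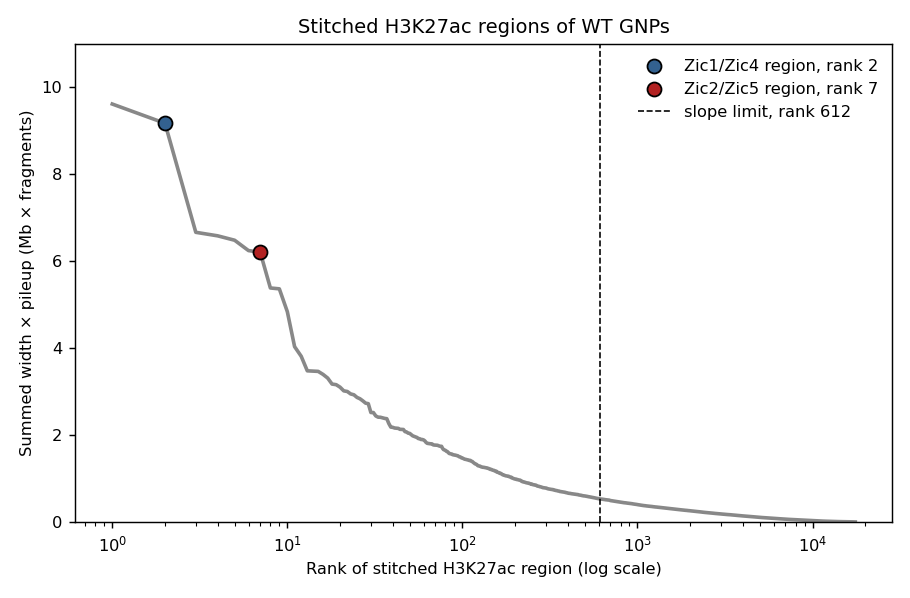
Stitched H3K27ac regions of WT GNPs by rank (x axis, log scale) and summed width times pileup in Mb × fragments (y axis). The *Zic1*/*Zic4* region sits at rank 2 and the *Zic2*/*Zic5* region at rank 7, far left of the dashed line at rank 612.

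Chd7 was detected at both *Zic* loci in WT GNPs, at 1 site by *Zic1* and 2 sites by *Zic2*, and all 3 sites had a fold enrichment below the median of WT Chd7 peaks. Both *Zic2* sites depended on the threshold, since with a minimum −log10 q-value of 5 the count at *Zic2*/*Zic5* was 0, while the site by *Zic1* was kept. That minimum lies above the median of 4.38 over all WT Chd7 peaks, so it removes most Chd7 peaks of the whole library too. The site downstream of *Zic1* (chr9:91350563-91351054) lay in an exon of the unclassified transcript *A730094K22Rik*, 7.25 kb beyond the end of *Zic1*. Its summit pileup was 25 fragments, its fold enrichment 3.99 (rank 1037 of 1946) and its −log10 q-value 5.25. The second site lay upstream of *Zic2*, in an intron of *2610035F20Rik*. It was broad, 1006 bp (rank 37 by width), and its summit pileup of 28 fragments was the highest of the 3. Its fold enrichment was 3.38 (rank 1628), beside a high local background of 7.59 fragments (rank 71). Its −log10 q-value was 4.40 (rank 960). The third site (chr14:122475560-122476204) had its summit 0.391 kb downstream of the *Zic2* start in coding sequence. Only 17 fragments piled up there, which gave a fold enrichment of 3.52 (rank 1524) and the lowest −log10 q-value of the 3, 2.68. Over all WT Chd7 peaks the median pileup was 21 fragments and the median fold enrichment 4.07.

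**Figure D4:**
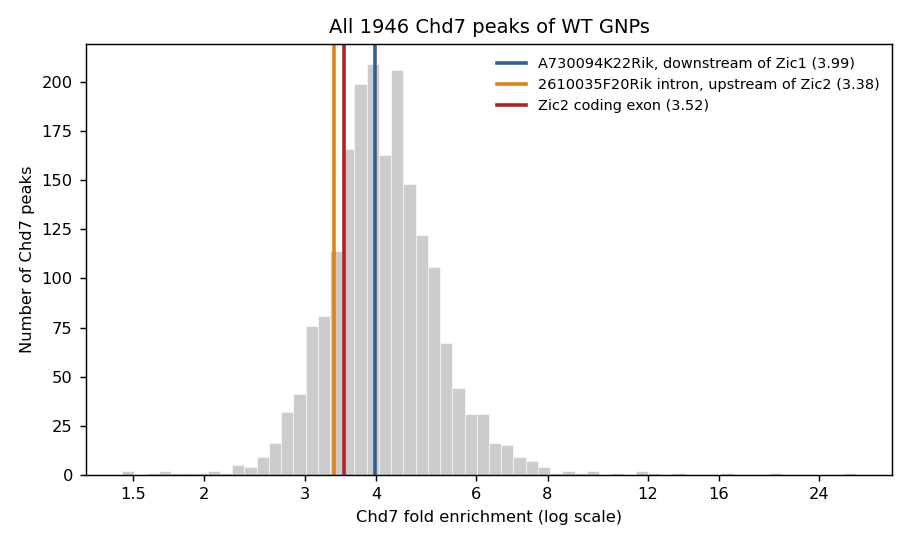
Distribution of the fold enrichment (x axis, log scale) of all 1946 Chd7 peaks of WT GNPs (y axis, number of peaks). The coloured lines mark the 3 peaks at the *Zic* loci, with fold enrichments of 3.38, 3.52 and 3.99, all below the median of 4.07.

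All 3 Chd7 peaks overlapped H3K27ac, as did 77.9% of all WT Chd7 peaks, and none overlapped a peak of *Chd7*-deficient GNPs, where 3.19% of WT peaks did. The tables do not give the number of reads of that library, so a signal too weak to be called at the *Zic* loci there cannot be told apart from none. Of the 19 H3K27ac peaks, 2 held Chd7 (10.5%, 95% Wilson interval 2.94 to 31.4%, counting error only), against 4.98% of all H3K27ac peaks. Both were wide peaks. Of the 6 wide *Zic* peaks 2 held Chd7, against 38.8% of all 98 wide peaks, so that the share at the *Zic* loci was near that of wide peaks in general. The 2 strongest acetylation peaks, both over *Zic4*, had no Chd7 peak, nor did the peaks over *Zic5*.

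At 2 of the 3 sites Chd7 lay close to the acetylation summit. The Chd7 and H3K27ac summits were 122 bp apart downstream of *Zic1* and 105 bp apart in the *Zic2* exon, whereas the upstream *Zic2* site was 1398 bp away. Over all 1515 WT Chd7 peaks at H3K27ac the median distance was 288 bp, so distances of this order were usual. Among the 38 wide peaks with Chd7, the median distance was 650.5 bp, and 5 were within 200 bp, both *Zic* peaks among them. The limit of 200 bp was set after the values were seen.

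Top2b of CGNs was mapped at the same loci after 48 h of culture, to compare the genotypes in differentiating neurons. The *Zic* loci held 9 Top2b peaks in WT CGNs and 10 in *Chd7*-deficient CGNs, in tables of 17030 and 21505 peaks. These tables give positions alone, so the strength of binding could not be compared. All 9 WT peaks lay in H3K27ac peaks of GNPs, against 17.4% of WT Top2b peaks in all. Of the 10 peaks of *Chd7*-deficient CGNs 9 did, against 26.6%, and the exception was chr14:122418532-122418931, downstream of *Zic5*. These whole-table shares are not a like baseline. In each genotype 9 peaks were centred in the genes or within 10 kb of them. H3K27ac peaks covered 95.4% of the DNA from the first to the last base of the pairs, so overlap there was likely wherever a Top2b peak fell. The WT peaks were all in wide acetylated peaks. Of the 19 H3K27ac peaks 5 held WT Top2b, against 9.38% of all H3K27ac peaks, and these were 5 of the 6 wide ones, against 55.1% of all 98 wide peaks. These 98 are not matched in width to the *Zic* peaks. Of the 10 widest H3K27ac peaks, which include 3 at the *Zic* loci, all but that of rank 5 held WT Top2b.

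At *Zic1*/*Zic4* the WT Top2b peaks lay at the Chd7 site downstream of *Zic1* (chr9:91350698-91351093), in the *Zic1* intron (chr9:91361962-91362357), in *Zic1* coding sequence (chr9:91364254-91364649), at a *Zic4* start (chr9:91378458-91378853) and in a *Zic4* intron (chr9:91381327-91381722). In *Chd7*-deficient CGNs only the last was called at an overlapping position. The other 4 peaks of that genotype were in *Zic1* coding sequence (chr9:91364716-91365115, 464 bp from the nearest WT centre), at an upstream *Zic4* start (chr9:91371050-91371449), in a *Zic4* intron (chr9:91383813-91384212) and just beyond the end of *Zic4* (chr9:91389595-91389994). From the WT peak at the Chd7 site, the nearest Top2b centre in *Chd7*-deficient CGNs was 14020 bp away.

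At *Zic2*/*Zic5* the WT peaks lay beyond the end of *Zic5* (chr14:122452809-122453204), in *Zic5* coding sequence (chr14:122464399-122464794), at the *Zic2* start (chr14:122475425-122475820) and beyond the end of *Zic2* (chr14:122481988-122482383). The peaks in *Zic5* and at the *Zic2* start were called in both genotypes, each with centres 10 bp apart. *Chd7*-deficient CGNs also had peaks in the *Zic5* intron (chr14:122462827-122463226), beyond *Zic2* (chr14:122481173-122481572, 813 bp from the nearest WT centre) and the one outside acetylation. The Top2b peak at the *Zic2* start, present in both genotypes, overlapped the Chd7 site in the *Zic2* exon.

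Altogether 3 of 9 WT Top2b peaks overlapped one of *Chd7*-deficient CGNs, and 3 of 10 the other way. Over the whole tables these shares were 16.8% and 13.3%, so that most called Top2b peaks had no overlapping call in the other genotype, at the *Zic* loci and elsewhere. The paper compared Top2b signal between the genotypes, a different measure, and reported a minority of Top2b sites as altered. With centres within 1 kb counted as shared, a distance chosen after the values were seen, 5 of 9 and 5 of 10 were shared, against 20.7% and 16.4%. The whole-table shares were not matched for the density of Top2b peaks, and in each genotype 9 *Zic* peaks were centred in the genes or within 10 kb of them. Whether positions were kept more often at the *Zic* loci than elsewhere was therefore not tested. Without a second library of either genotype, a difference in peak calling cannot be told apart from a difference between the genotypes. Top2b overlapped 2 of the 3 Chd7 peaks in WT CGNs (16.6% of all Chd7 peaks) and 1 of the 3 in *Chd7*-deficient CGNs (34.2%).

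The shared Top2b sites in *Zic4* and *Zic5* are shown because they were called in both genotypes. Each line gives 201 bases of mm10 around the centre of the WT peak, plus strand, with CpGs in capitals.
Shared Top2b site in the Zic4 intron, chr9:91381424-91381624: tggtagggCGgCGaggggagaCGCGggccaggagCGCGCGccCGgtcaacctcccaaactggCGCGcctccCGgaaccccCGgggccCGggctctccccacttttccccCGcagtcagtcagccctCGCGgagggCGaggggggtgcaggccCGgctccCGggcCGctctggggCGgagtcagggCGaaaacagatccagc
Shared Top2b site in the Zic5 coding exon, chr14:122464496-122464696: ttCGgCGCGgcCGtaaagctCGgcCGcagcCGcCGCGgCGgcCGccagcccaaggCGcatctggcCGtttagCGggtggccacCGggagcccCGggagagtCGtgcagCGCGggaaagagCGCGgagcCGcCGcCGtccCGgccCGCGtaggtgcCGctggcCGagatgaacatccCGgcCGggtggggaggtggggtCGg
Both were CpG-rich, with 75.1% GC and 22 CpGs in *Zic4* and 76.6% GC and 32 CpGs in *Zic5*. The *Zic5* site held 1 CAGATG on the minus strand, and the other 5 motifs were found in neither.

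The 4 *Zic* genes were next set beside their relatives and beside other factors of the lineage, counting every peak in a gene or within 50 kb of it. The paired genes share most of their window, so their values are not independent. The summed H3K27ac width was 49.9 kb for *Zic1*, 52.0 kb for *Zic4*, 42.3 kb for *Zic2* and 43.0 kb for *Zic5*, against a median of 1.90 kb over 21938 protein-coding genes. By width times pileup they ranked 5, 4, 11 and 10 of all genes. Their numbers of peaks (8, 11, 7 and 8) were less extreme, at ranks from 773 to 2393, so the acetylated length came from wide peaks more than from many peaks. Each had a Chd7 peak within this distance, as 14.3% of protein-coding genes did, and each had WT Top2b peaks, as 62.2% did.

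**Figure D5:**
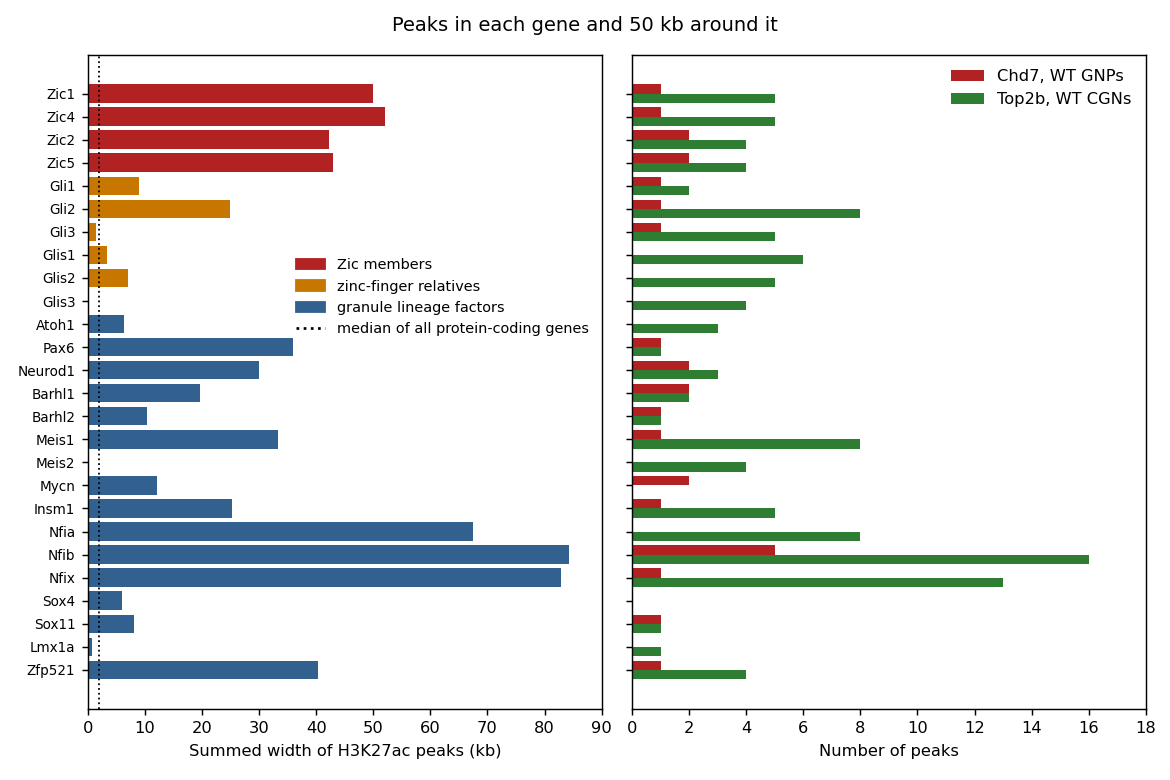
Summed width of H3K27ac peaks in kb (left) and number of Chd7 peaks of WT GNPs and Top2b peaks of WT CGNs (right) in each gene and 50 kb around it. The 4 *Zic* genes (42.3 to 52.0 kb) exceed all 6 zinc-finger relatives and 13 of the 16 granule lineage factors in acetylated length.

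None of the 6 zinc-finger relatives, the *Gli* and *Glis* genes, reached these lengths. Of the Gli factors, which carry the Sonic hedgehog signal, *Gli2* had 25 kb in 30 peaks, *Gli1* 9.01 kb in 9 peaks and *Gli3* 1.35 kb in 2 peaks, each with 1 Chd7 peak. The *Glis* genes had 7.04 kb (*Glis2*), 3.30 kb (*Glis1*) and 0 kb (*Glis3*), with no Chd7 peak. Of the 16 granule lineage factors, 11 had Chd7 and 14 had WT Top2b peaks, and their median acetylated length was 22.4 kb. The nuclear factor I genes, which drive granule neuron maturation, exceeded the *Zic* genes in length, with 84.2 kb at *Nfib*, 82.9 kb at *Nfix* and 67.5 kb at *Nfia*, spread over 44, 42 and 53 peaks. *Atoh1*, the factor that specifies GNPs, had 6.25 kb.

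By number of H3K27ac peaks, width times pileup, and numbers of Chd7 and Top2b peaks together, the genes most like *Zic1*/*Zic4* were *Insm1* (distance 0.246 in units of standard deviation on a log2 scale), *Calr*, *Slc22a23*, *Samd12* and *Agrp*. Those most like *Zic2*/*Zic5* were *Tppp3* (0.210), *Gpr19*, *Neo1*, *Lrrc74a* and *Fgf11*. The likeness lay in the numbers of peaks. Width times pileup was 1.2 to 2.52 Mb × fragments in these 10 genes, against 6.31 to 9.18 for the *Zic* genes, and their acetylated length, 9.33 to 25.3 kb, was below that of every *Zic* gene.

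The other annotated genes in the windows, noncoding or predicted, were acetylated unevenly. H3K27ac peaks covered the starts of *Gm37477*, *A730094K22Rik* and *Gm29478* at *Zic1*/*Zic4*, and of *2610035F20Rik*, *Gm5089* and *Gm10837* at *Zic2*/*Zic5*. No peak covered the starts of *Gm28652*, *Gm37040* and *Gm37457*, which lie on the 3′ side of *Zic1*, or of the pseudogenes *Gm9399* and *Gm18143* beyond *Zic2*. The acetylated DNA at *Zic1*/*Zic4* ended well within the window, with the last peak 31.1 kb and the next 66.5 kb beyond the genes (fold enrichments 5.61 and 3.53). At *Zic2*/*Zic5* the edge cut through acetylated DNA, with a peak of fold enrichment 3.15 at 48.5 kb and a peak of 6606 bp with fold enrichment 14.5 at 52.6 kb. The nearest Chd7 peaks outside the windows were 157.9 kb from *Zic1*/*Zic4* and 89.2 kb from *Zic2*/*Zic5*.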

How the data were processed

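ChIP-seq peak tables of 5 libraries were used, 3 of GNPs and 2 of CGNs, with 1 library per condition. The authors trimmed reads (Trim Galore), mapped them to mm10 with Bowtie 1.0.0 keeping reads with a single alignment, called Chd7 and H3K27ac peaks per library with MACS2 at default settings and called Top2b peaks with HOMER, per the paper's methods and the submitters' processing notes. The pileup the authors deposited is a coverage signal, the fragments over the summit. It is a whole number in the Chd7 tables and a multiple of 0.94 for H3K27ac. The deposited fold enrichment and −log10 p- and q-values had lost their decimal points, which were restored by dividing by 100000. Recomputed −log10 p-values differed by at most 0.00261 (31348 of 31400 H3K27ac peaks compared). Top2b tables give positions of 396 bp (WT) or 400 bp. The control library is not given in the sources used here. The tables hold no read numbers, and the paper's methods give only a lower limit of mapped reads, not set out by library, so the depth of each library could not be compared. The 2 input libraries were not analysed here.

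Peaks overlapping by at least 1 bp were called shared. The share of H3K27ac peaks with Chd7 has a 95% Wilson interval, which covers counting error only, and the other shares are given without an interval. Genes came from GENCODE M21, sequences from GRCm38. H3K27ac peaks within 12.5 kb were stitched and ranked by summed width times pileup, with the limit where the scaled curve has slope 1. Named genes were the members, genes starting in the windows, both lists, and per locus the 5 nearest genes by Euclidean distance over 4 z-scored log2 measures. The members, lists and motifs were chosen with earlier results of these data known. 1 listed gene and the sequence of 1 Chd7 site are not reported here. The alternatives changed window, threshold, placement, overlap and stitching. All 5 checks on simulated data passed. The scripts ran in Python 3.11.15 with pandas 2.3.3, matplotlib 3.10.9, scipy 1.17.1 and numpy 2.4.6.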

Additional observations from a re-analysis of the deposited data

How the results depend on the processing

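Of 37 values under alternative settings, 28 stayed within 1.5 times the reported value, or within its interval for the share of H3K27ac peaks with Chd7. A window of 10 kb left 4 H3K27ac peaks at *Zic1*/*Zic4* and 5 at *Zic2*/*Zic5*, and a window of 100 kb held 21 at *Zic2*/*Zic5*, by construction. The Chd7 sites at *Zic2* depended on the threshold: with a minimum −log10 q-value of 5, 0 remained at *Zic2*/*Zic5*, and 1 Chd7 peak overlapping H3K27ac remained at the *Zic* loci, the site downstream of *Zic1*. The median over all WT Chd7 peaks was 4.38, so this minimum also removes most of the other Chd7 peaks. The *Zic1*/*Zic4* region ranked 1 when peaks were stitched within 5 kb and 1 when ranked by width times fold enrichment. Without peaks near starts the ranks were 10 for *Zic1*/*Zic4* and 23 for *Zic2*/*Zic5*, since that setting removes acetylated DNA at the genes themselves. Ranking Top2b peaks by score was not run, because their tables give positions alone. No paired analysis was possible because each condition has 1 library.

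No value here has a replicate error. The tables hold no read numbers by library, so a peak that was not called is not shown to be absent, and counts cannot be compared between libraries for depth.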
